A study of Homo sapiens with 7 samples.

Results

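Polycomb repressive complex 1 (PRC1) subunits were followed in human embryonic stem cells (hESCs) in which the catalytic domain of the H3K27me3 demethylase JMJD3 was switched on. The 9 genes were RING1 and RNF2, BMI1, PCGF1, PCGF2 and PCGF6, and CBX2, CBX7 and CBX8. They were taken by gene name from the 22670 rows of the expression tables. The names matched 16 rows, of which the row with the highest mean was taken for each gene, and the 7 rows left out lie on patch or alternate sequences and are listed at 0 in every library.

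All cells were SEES-3, an established hESC line, grown without feeder cells and selected as stable lines after piggyBac transfer of a Tet-On construct. In JMJD3c-hESCs, HA-tagged JMJD3c (the JmjC catalytic domain with a nuclear localization signal) was under the control of doxycycline (Dox). Day 0 had no Dox, and Days 1, 2, 3 and 4 followed the addition of 1 µg/ml Dox. JMJD3c mut-hESCs carried the same construct with a point mutation that removes catalytic activity, and were taken without Dox and 4 days after its addition. The 7 conditions had 1 library each, so differences below were not checked against replicates and carry no p-value. The clone, the library and its depth cannot be told apart from the condition.

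PRC1 is the ubiquitin ligase arm of the Polycomb system. RING1 or RNF2 carries the ligase activity that places a ubiquitin on histone H2A, and 1 of the PCGF proteins pairs with it and sorts the complexes into types. Canonical complexes hold PCGF2 or BMI1 together with a CBX protein, which binds H3K27me3, and a PHC protein, which can polymerize. Variant complexes hold RYBP or YAF2 in place of CBX and do not need H3K27me3 to reach their targets. In pluripotent cells, PRC1 holds many developmental genes in a repressed, compacted state.

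Expression is given as FPKM, fragments scaled to transcript length and to the number mapped, which allows genes to be set side by side. Each value came with a 95% interval from Cufflinks, which describes the estimate within 1 library and not the spread between cultures. With the cutoffs of the study, upregulated genes had a ratio above 2 and a treated value over 4 FPKM, and downregulated genes a ratio below 0.5 and a reference value over 4 FPKM. Log2 fold changes were taken after adding 1 to both values and understate changes of low genes. In bulk RNA, a lower value can mean fewer cells that express a gene or less RNA per cell, and these cannot be told apart.

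The induced gene was checked first. KDM6B, which encodes JMJD3 and whose row may also take reads of the transgene, was listed at 3.45 FPKM at Day 0, with 158.2, 212.5, 247.9 and 282.2 FPKM on Days 1 to 4. In the mutant line it was 2.40 FPKM without Dox and 454.2 FPKM with Dox. The 7 markers of undifferentiated hESCs were all above 4 FPKM in every library, with sums between 1618 (Day 4) and 2295 FPKM (Day 0). All 7 were lower at Day 4 than at Day 0. SOX2 (135.6 to 65.9 FPKM) and DNMT3B (404.4 to 191.5 FPKM) were downregulated, beside 7.56% of the rows above 4 FPKM. With Dox in the mutant line all 7 were also lower and none was called, beside 1.53% of such rows. The sum of the 8 mesoendoderm markers was 5.49 FPKM at Day 0, 309.8 FPKM at Day 4, and 10.9 and 7.83 FPKM in the mutant line without and with Dox. The sum of 5 neuroectoderm markers stayed between 0.677 and 10.8 FPKM, and that of 5 trophoblast or amnion markers between 4.83 and 7.22 FPKM. Of 6 fibroblast markers, whose sum was between 92.8 and 166.2 FPKM, COL1A1 (4.18 to 11.3 FPKM), COL1A2 (12.5 to 28.4 FPKM) and THY1 (76.1 to 129.9 FPKM) were above 4 FPKM in every library, COL3A1 was at 0 in 6 of 7, and DCN and LUM were at 0 in all. Depth, estimated from the steps of low values, lay between 3550000 and 7320000 reads, and Day 0 was the shallowest library.

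The promoters of the 2 members that passed the cutoffs at Day 4 against Day 0, BMI1 and CBX7, follow. They were chosen by these calls, and CBX7 was not called at Day 4 against the untreated mutant line. The promoter upstream of BMI1 from which the read-through gene COMMD3-BMI1 is transcribed is given with them. Each is the 250 bases before the annotated RefSeq start on GRCh38.p14, 5′ to 3′ on the strand of the gene. Capitals mark 3 short motifs that were searched on both strands. The E-box was spelled CACGTG and reads the same on either strand. The GC box was spelled GGGCGG, and neighbouring copies can overlap. The CCAAT box was spelled by the letters of its name.
BMI1, chr10:22320849-22321098, plus strand: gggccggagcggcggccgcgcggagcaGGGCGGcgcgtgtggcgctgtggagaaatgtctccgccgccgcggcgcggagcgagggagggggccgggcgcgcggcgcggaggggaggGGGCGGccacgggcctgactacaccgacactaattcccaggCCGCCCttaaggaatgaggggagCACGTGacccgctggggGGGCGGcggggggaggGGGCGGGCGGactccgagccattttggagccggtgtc
COMMD3-BMI1, chr10:22316138-22316387, plus strand: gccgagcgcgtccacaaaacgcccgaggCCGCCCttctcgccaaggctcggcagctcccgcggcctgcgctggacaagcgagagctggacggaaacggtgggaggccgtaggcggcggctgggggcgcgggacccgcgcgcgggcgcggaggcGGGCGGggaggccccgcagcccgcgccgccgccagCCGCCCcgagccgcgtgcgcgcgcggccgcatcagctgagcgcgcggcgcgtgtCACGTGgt
CBX7, chr22:39152681-39152930, minus strand: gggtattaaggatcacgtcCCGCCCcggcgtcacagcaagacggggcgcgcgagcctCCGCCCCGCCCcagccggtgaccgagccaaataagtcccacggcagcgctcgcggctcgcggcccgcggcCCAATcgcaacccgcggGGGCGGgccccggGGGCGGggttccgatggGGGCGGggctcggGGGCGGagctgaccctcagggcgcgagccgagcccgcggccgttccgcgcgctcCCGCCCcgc

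The BMI1 window holds 1 E-box and 6 GC boxes, and 76.8% of its bases are G or C. Its E-box begins 70 bases before the start. The COMMD3-BMI1 window, which is the same stretch as that of COMMD3, holds 1 E-box and 3 GC boxes. The CBX7 window holds 8 GC boxes, 1 CCAAT box and no E-box. Of 35116 windows of this length before RefSeq starts, 6.34% hold the E-box, 42.6% a GC box and 32.0% a CCAAT box. RefSeq windows were found for 7 of the 9 members, and none was found for CBX2 and CBX8. Among the members, only the first BMI1 start has the E-box, which a second start of the same gene lacks.

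CpG dinucleotides, the sites of DNA methylation, numbered 35 in the window of the first BMI1 start, 54 at its second start and 41 at CBX7, against a median of 11 over all windows. RING1 and RNF2 each had 34 CpG, PCGF6 had 19, PCGF1 had 12 and PCGF2 had 1. A motif match describes the sequence and is not a measured binding site.

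RING1 and RNF2, the paralogous ligase subunits, were read first. RNF2 (ENSG00000121481, chromosome 1 of hg19, 185014496 to 185071740) was 23.6 FPKM at Day 0, 28.9, 27.1, 31.1 and 34.8 FPKM on Days 1 to 4, and 34.0 and 29.8 FPKM in the mutant line without and with Dox. All 4 Dox days of JMJD3c-hESCs were above Day 0, but the untreated mutant line was within 1.02-fold of Day 4. The ratio of Day 4 to Day 0 was 1.48 with overlapping intervals (16.1 to 31.1 and 27.2 to 42.5 FPKM).

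RING1 (ENSG00000204227, chromosome 6, 33176272 to 33180499) was 14.5 FPKM at Day 0, 10.4, 11.4, 14.1 and 12.7 FPKM at Days 1 to 4, and 5.28 and 6.24 FPKM in the mutant line without and with Dox. The 5 libraries of JMJD3c-hESCs all lay above the 2 of JMJD3c mut-hESCs. The untreated mutant line was at 0.364 of Day 0, past the cutoff, with intervals apart (3.27 to 7.15 and 9.62 to 19.2 FPKM). Within either line, no Dox library passed the cutoffs for RING1. The ratio of RNF2 to RING1 was between 1.62 and 2.78 in JMJD3c-hESCs and was 6.44 and 4.78 in the mutant line.

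The PCGF subunits held the largest difference among the 9 genes. BMI1 (PCGF4), which builds canonical PRC1 and is known as a repressor of the CDKN2A locus in dividing cells, was 4.65 FPKM at Day 0 and 8.13, 15.7, 15.1 and 34.6 FPKM on Days 1 to 4. In the mutant line it was 3.27 FPKM without Dox and 2.96 FPKM with Dox. Every Dox day of JMJD3c-hESCs was above the 3 libraries that were untreated or carried the inactive enzyme. Day 4 was 7.45 times Day 0 (log2 fold change 2.66), with intervals of 24.6 to 44.6 and 0.348 to 9.38 FPKM that did not overlap.

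BMI1 was upregulated at Day 2 (log2 fold change 1.57), Day 3 (1.51) and Day 4. At Day 1 its ratio of 1.75 was under the cutoff, but 2.43 with the FPKM of the overlapping gene COMMD3-BMI1 added. Day 4 was 10.6 times the untreated and 11.7 times the Dox-treated mutant line, and Dox in the mutant line itself gave a ratio of 0.905 (log2 fold change −0.11). The sum of mesoendoderm markers rose at each step, from 5.49 FPKM at Day 0 through 16.7, 93.8 and 195.5 to 309.8 FPKM at Day 4. BMI1 also rose from Day 0 to Day 4, but not from Day 2 (15.7 FPKM) to Day 3 (15.1 FPKM). The part of cells of that kind in the BMI1 values was not tested.

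**Figure D1:**
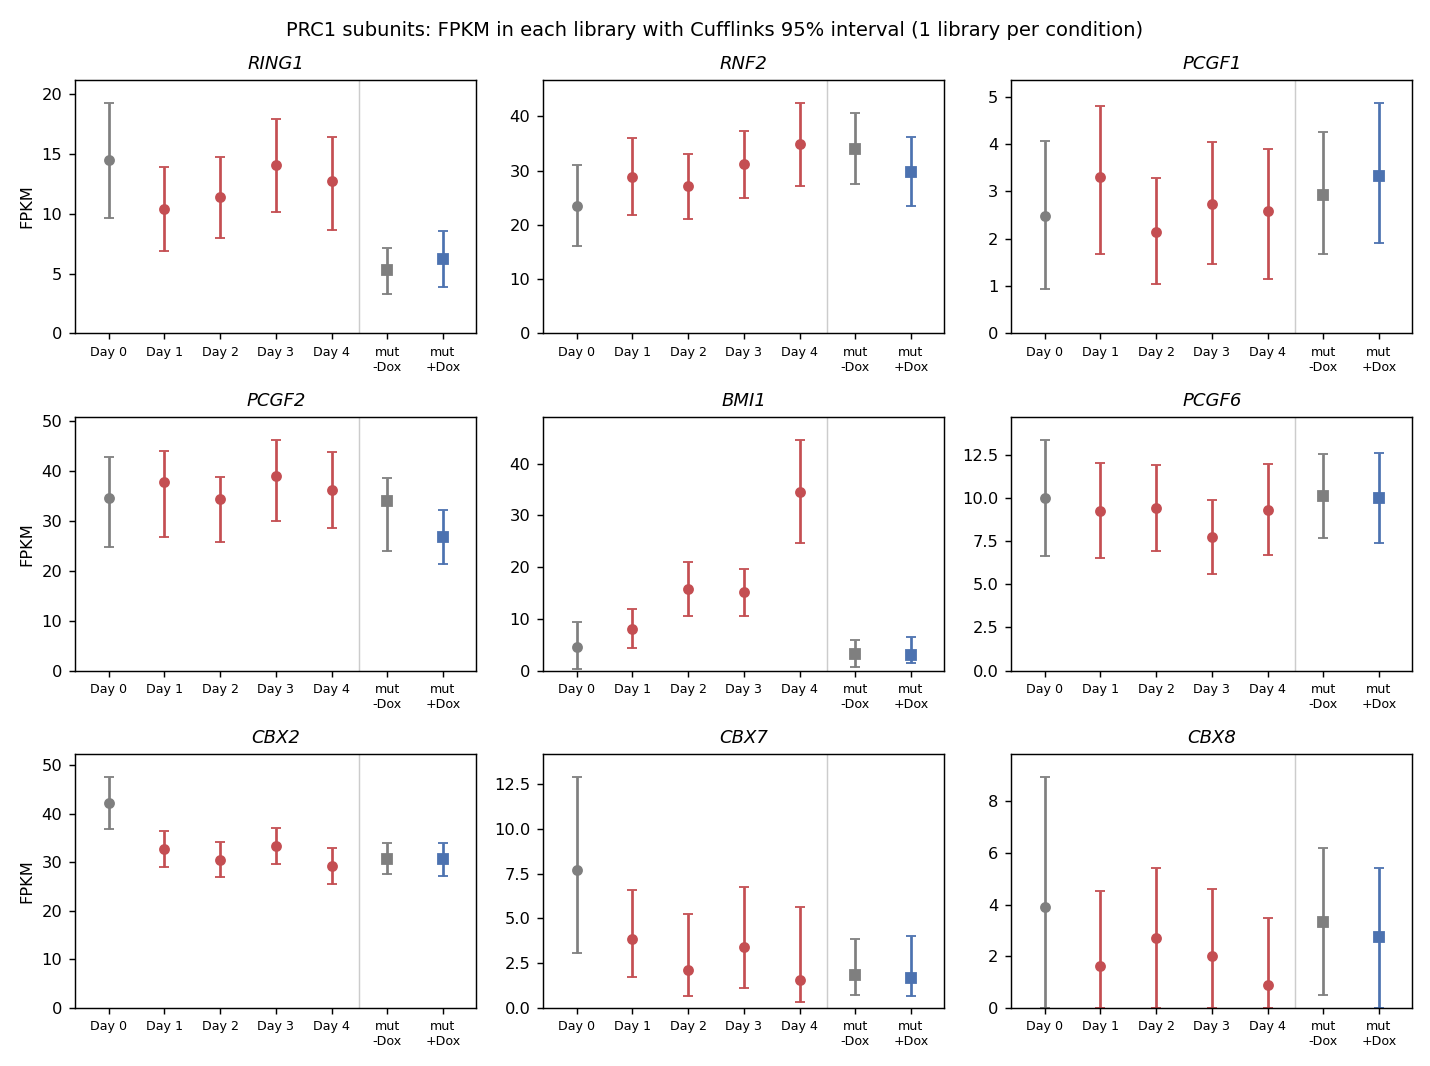
FPKM (y axis, linear, from 0) of the 9 PRC1 subunits in each library (x axis), with bars for the Cufflinks 95% interval; circles are JMJD3c-hESCs, squares JMJD3c mut-hESCs, grey is without Dox and colour with Dox. BMI1 reaches 34.6 FPKM at Day 4, and RING1 is lower in both mutant libraries than in the other 5.

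Another annotated gene lies across BMI1 (ENSG00000168283, chromosome 10, 22610140 to 22620413). In a GENCODE annotation that differs from the one behind the FPKM values, BMI1 shares 8444 bases on the same strand with COMMD3-BMI1. This gene is a read-through from COMMD3, whose end lies 904 bases before BMI1. COMMD3-BMI1 was 0.834, 5.17, 0.00373, 4.16 and 1.84 FPKM at Days 0 to 4 and 3.96e-20 and 1.06 FPKM in the mutant line. The values followed no order in time, and how reads were divided between the 2 entries is uncertain.

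With the FPKM of both entries summed, the values were 5.48, 13.3, 15.7, 19.3 and 36.5 FPKM at Days 0 to 4 and 3.27 and 4.01 FPKM in the mutant line. The longest transcripts of BMI1 and COMMD3-BMI1 have 3540 and 1419 bases, so a read of COMMD3-BMI1 weighs more in this sum. Ratios of pooled reads were not computed. The sum passed the cutoffs at Day 4 (ratio 6.65) and also at Day 1 (ratio 2.43), where BMI1 alone did not. With Dox in the mutant line the sum had a ratio of 1.23, above 1, where BMI1 alone was below 1. COMMD3 itself, which encodes a COMM domain protein, was 2.02, 3.60, 12.7, 8.90 and 19.9 FPKM at Days 0 to 4. It was 2.96 and 3.59 FPKM in the mutant line without and with Dox. At Day 4 it was 9.84 times Day 0 with intervals apart (10.9 to 27.0 and 0 to 6.23 FPKM). COMMD3, too, shares annotated sequence with the read-through gene.

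PCGF2 (MEL18, ENSG00000056661, chromosome 17, 36890150 to 36906070), the closest paralog of BMI1, was 34.6, 37.6, 34.2, 39.0 and 36.1 FPKM at Days 0 to 4 and 33.9 and 26.7 FPKM in the mutant line without and with Dox. Its values spanned 1.46-fold over the 7 libraries and none of its comparisons passed the cutoffs. CISD3, which the same GENCODE annotation places on the opposite strand over 1708 bases of PCGF2, was between 1.90 and 7.00 FPKM. Its identifier in that annotation is not the one behind these FPKM, and whether reads were counted by strand is not known. PCGF2 was 7.44 times BMI1 at Day 0 and 4.63, 2.18, 2.58 and 1.04 times BMI1 on Days 1 to 4. In the mutant line PCGF2 was 10.4 times BMI1 without Dox and 9.03 times with Dox.

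PCGF1 and PCGF6 belong to variant complexes, PCGF1 with BCOR and KDM2B, and PCGF6 with MGA, MAX and L3MBTL2. PCGF6 (ENSG00000156374, chromosome 10, 105062553 to 105110891) was between 7.74 FPKM (Day 3) and 10.1 FPKM (untreated mutant line), a span of 1.30-fold. PCGF1 (ENSG00000115289, chromosome 2, 74732170 to 74735707) was between 2.15 FPKM (Day 2) and 3.34 FPKM (mutant line with Dox) and reached 4 FPKM in no library and so was under the cutoff throughout. Of the other PCGF genes, PCGF3 was between 15.2 and 22.5 FPKM. PCGF5 was 0.939 FPKM at Day 0, 1.22, 4.03, 0.243 and 5.32 FPKM on Days 1 to 4, and 2.67 and 0.137 FPKM in the mutant line. It was called at Days 2 and 4 with overlapping intervals (0 to 3.88 FPKM at Day 0 and 0.241 to 10.5 FPKM at Day 4), and Day 3 was below Day 0.

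Summed over the 6 PCGF genes, FPKM was 68.1 at Day 0, 107.1 at Day 4, 68.5 in the untreated and 58.3 in the Dox-treated mutant line. The share of BMI1 in this sum was 6.83% at Day 0, 9.92%, 18.7%, 18.2% and 32.3% on Days 1 to 4, and 4.77% and 5.07% in the mutant line. That of PCGF2 was 50.8% at Day 0 and 33.7% at Day 4. The lower share of PCGF2 at Day 4 came with a level of its own that differed from Day 0 by a ratio near 1.

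**Figure D2:**
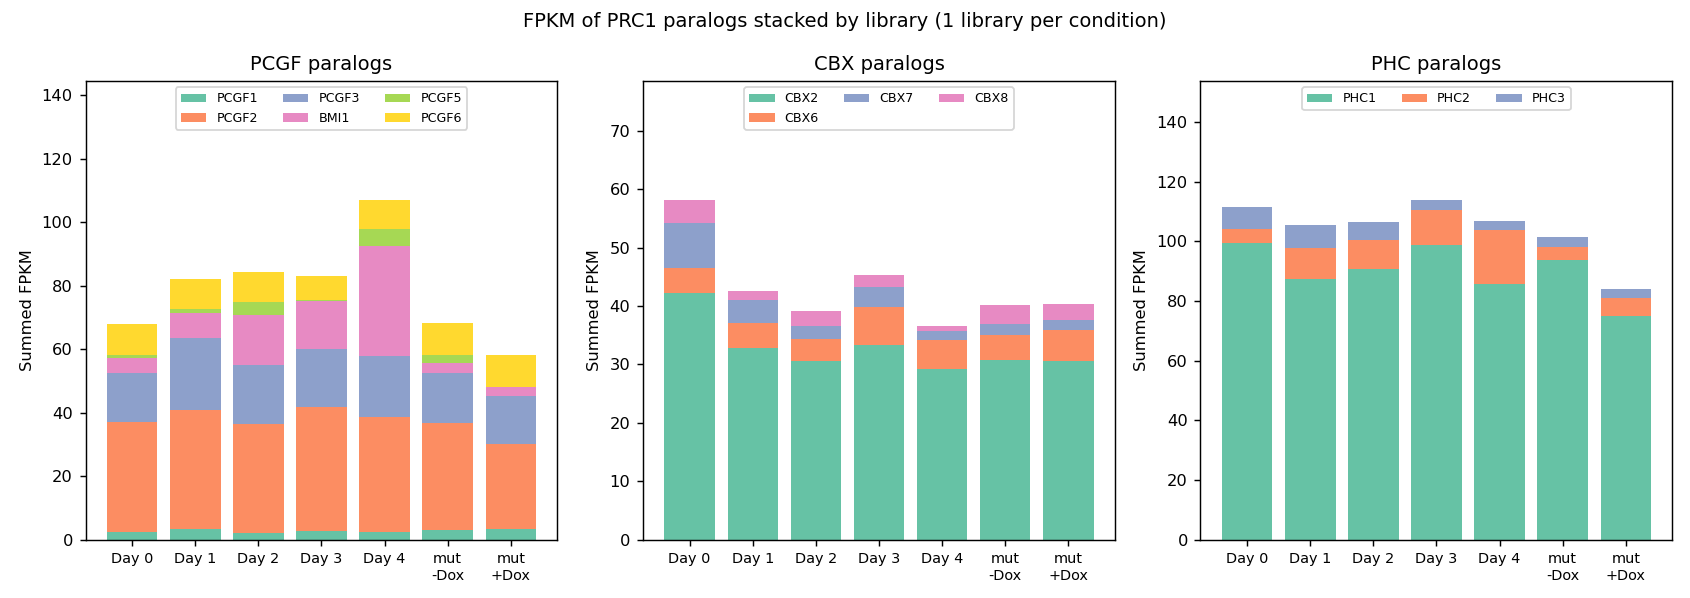
FPKM stacked by gene (y axis, linear) for 6 PCGF, 4 CBX and 3 PHC paralogs in each library (x axis). The PCGF sum is 68.1 FPKM at Day 0 and 107.1 FPKM at Day 4 with a growing BMI1 segment, CBX2 makes up most of every CBX bar, and PHC1 most of every PHC bar.

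The CBX subunits bring canonical PRC1 to H3K27me3 through their chromodomain. CBX2 (ENSG00000173894, chromosome 17, 77751931 to 77761782), which can also compact chromatin, was 42.2 FPKM at Day 0, 32.7, 30.6, 33.4 and 29.2 FPKM at Days 1 to 4, and 30.7 and 30.6 FPKM in the mutant line without and with Dox. Day 0 stood alone, and the other 6 libraries lay between 29.2 and 33.4 FPKM. Day 4 was at 0.691 of Day 0, with intervals apart (25.5 to 32.9 and 36.9 to 47.5 FPKM) but short of the cutoff, and at 0.951 of the untreated mutant line.

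CBX7 (ENSG00000100307, chromosome 22, 39526777 to 39548655), known as a main CBX protein of self-renewing embryonic stem cells, was 7.69 FPKM at Day 0, 3.87, 2.13, 3.40 and 1.53 FPKM at Days 1 to 4, and 1.83 and 1.69 FPKM in the mutant line without and with Dox. Day 0 was again above the other 6 libraries, with or without Dox. CBX7 was called downregulated at Days 2, 3 and 4, and at Day 4 its ratio was 0.199 (log2 fold change −1.78). The intervals of Day 0 (3.04 to 12.9 FPKM) and Day 4 (0.317 to 5.62 FPKM) overlapped.

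Against the untreated mutant line, in which it was already at 0.238 of Day 0, CBX7 at Day 4 had a ratio of 0.837. The call for CBX7 therefore depended on the Day 0 library. CBX8 (ENSG00000141570, chromosome 17, 77765931 to 77775332), which lies 4148 bases from CBX2, was 3.91 FPKM at Day 0, 1.62, 2.71, 2.02 and 0.882 FPKM at Days 1 to 4, and 3.33 and 2.72 FPKM in the mutant line. Its ratio at Day 4 was 0.225, and it was not called because Day 0 was just under 4 FPKM. Its intervals reached 0 in 6 of the 7 libraries.

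CBX6, a further CBX gene, was between 3.84 and 6.45 FPKM, with no call at Day 4 against Day 0. CBX2 made up between 72.6% and 79.8% of the sum of CBX2, CBX6, CBX7 and CBX8 in each of the 7 libraries. The sum itself was 58.2 FPKM at Day 0 and between 36.6 and 45.3 FPKM in the other 6. CBX2, CBX7 and CBX8 were each highest at Day 0, and so were RING1 and PHC1, which are not CBX genes. The share of all rows highest at Day 0 was not computed, so nothing is read from this about the CBX genes.

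In the order of levels at Day 0, CBX2 (42.2 FPKM) was followed by PCGF2, RNF2, RING1, PCGF6, CBX7, BMI1, CBX8 and PCGF1 (2.47 FPKM), and the interval of each gene overlapped that of the next. At Day 4 the order was PCGF2 (36.1 FPKM), RNF2, BMI1, CBX2, RING1, PCGF6, PCGF1, CBX7 and CBX8 (0.882 FPKM). There the first 4 overlapped with their neighbours, CBX2 and RING1 were apart, and so were PCGF6 and PCGF1. BMI1 moved from rank 7 at Day 0 to rank 3 at Day 4 and was at rank 7 in both libraries of the mutant line. The level was above 4 FPKM in all 7 libraries for 5 members, in some for BMI1 (5 libraries) and CBX7 (1 library), and in none for CBX8 and PCGF1.

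At Day 4 against Day 0, 1 of the 9 members was upregulated (BMI1) and 1 was downregulated (CBX7). Of all 22670 rows, 2.66% were upregulated and 3.42% downregulated, and of the 10247 rows above 4 FPKM in either library, which 7 of the members were, 5.87% and 7.56%. With 1 gene in each direction, nothing is read from these counts about the members as a group. Intervals were apart for 2 members, BMI1 and CBX2, beside 12.1% of the rows above 4 FPKM. The median log2 fold change of the 9 was −0.09, with 4 higher and 5 lower, beside 0 over all rows and −0.06 over the rows above 4 FPKM.

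On the earlier days, no member was called at Day 1, where 3.48% of the rows above 4 FPKM were upregulated and 3.27% downregulated. BMI1 was upregulated and CBX7 downregulated at Day 2 (3.9% and 4.24% of such rows) and at Day 3 (4.73% and 4.48%). These comparisons share the Day 0 library. With Dox in the mutant line, no member was called, where 1.25% of the rows above 4 FPKM were upregulated and 1.53% downregulated. The 9 members had a median there of −0.07.

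The untreated libraries differed from each other as well. Against Day 0, the untreated mutant line had no member upregulated and 2 downregulated, CBX7 and RING1, beside 2.78% and 7.01% of the rows above 4 FPKM. Day 4 against the untreated mutant line gave 2 upregulated members, RING1 (ratio 2.41) and BMI1, beside 7.05% of such rows, and none downregulated, beside 3.9%. Day 4 against the Dox-treated mutant line gave the same 2 (RING1 ratio 2.04), beside 6.56%, and none downregulated, beside 3%. BMI1 was the 1 member called against all 3 references.

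**Figure D3:**
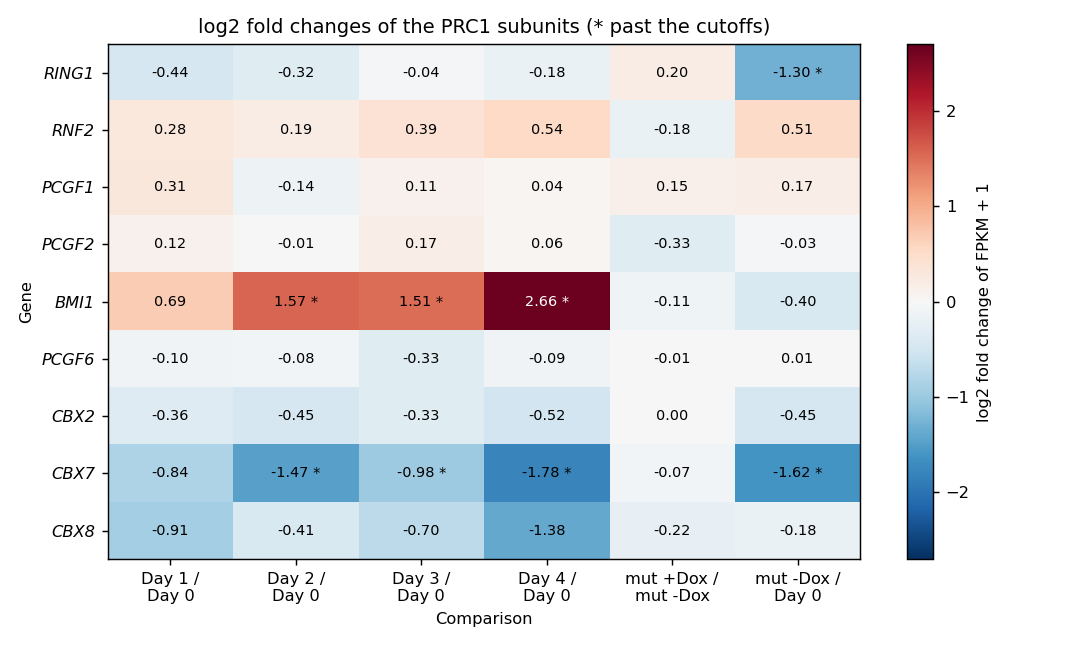
Log2 fold change of FPKM + 1 (colour and number) of the 9 subunits (y axis) in 6 comparisons (x axis), with an asterisk where the cutoffs were passed. BMI1 is upregulated at Days 2, 3 and 4 and at −0.11 with Dox in the mutant line, while CBX7 is at −1.78 at Day 4 and at −1.62 in the untreated mutant line.

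The further PRC1 subunits examined were 8 genes, CBX6, PCGF3, PCGF5, PHC1, PHC2, PHC3, RYBP and YAF2. At Day 4 against Day 0, 2 were upregulated (PHC2 and PCGF5) and 1 was downregulated (PHC3), beside 5.87% and 7.56% of the rows above 4 FPKM, and the median log2 fold change was 0.33. PHC2, a polyhomeotic subunit of canonical PRC1, was 4.55 FPKM at Day 0, 10.5, 9.53, 11.8 and 18.2 FPKM at Days 1 to 4, and 4.18 and 6.15 FPKM in the mutant line without and with Dox. Like BMI1, its 4 Dox days in JMJD3c-hESCs lay above the other 3 libraries.

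Day 4 of PHC2 was 4.00 times Day 0 (log2 fold change 1.79) with intervals apart (14.2 to 22.2 and 2.07 to 7.08 FPKM), and 4.35 times the untreated mutant line. It was called on every Dox day of JMJD3c-hESCs and not with Dox in the mutant line, where the ratio was 1.47 with overlapping intervals. PHC1, the most abundant PHC gene, was between 74.8 and 99.6 FPKM. The share of PHC2 in the sum of the 3 PHC genes was 4.08% at Day 0 and 17% at Day 4, and 4.12% and 7.31% in the mutant line.

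PHC3 was 7.27 FPKM at Day 0, 7.57, 5.998, 3.42 and 3.12 FPKM on Days 1 to 4, and 3.41 and 3.16 FPKM in the mutant line without and with Dox. It was called downregulated at Day 4 with overlapping intervals, and was not called against the untreated mutant line (ratio 0.913). RYBP, the bridging subunit of variant PRC1, was between 8.22 and 12.1 FPKM. Its paralog YAF2 was listed at 0 at Day 0, where 3 reads would have given about 0.173 FPKM, and was 3.74 FPKM at Day 4, under the cutoff of 4 FPKM.

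**Figure D4:**
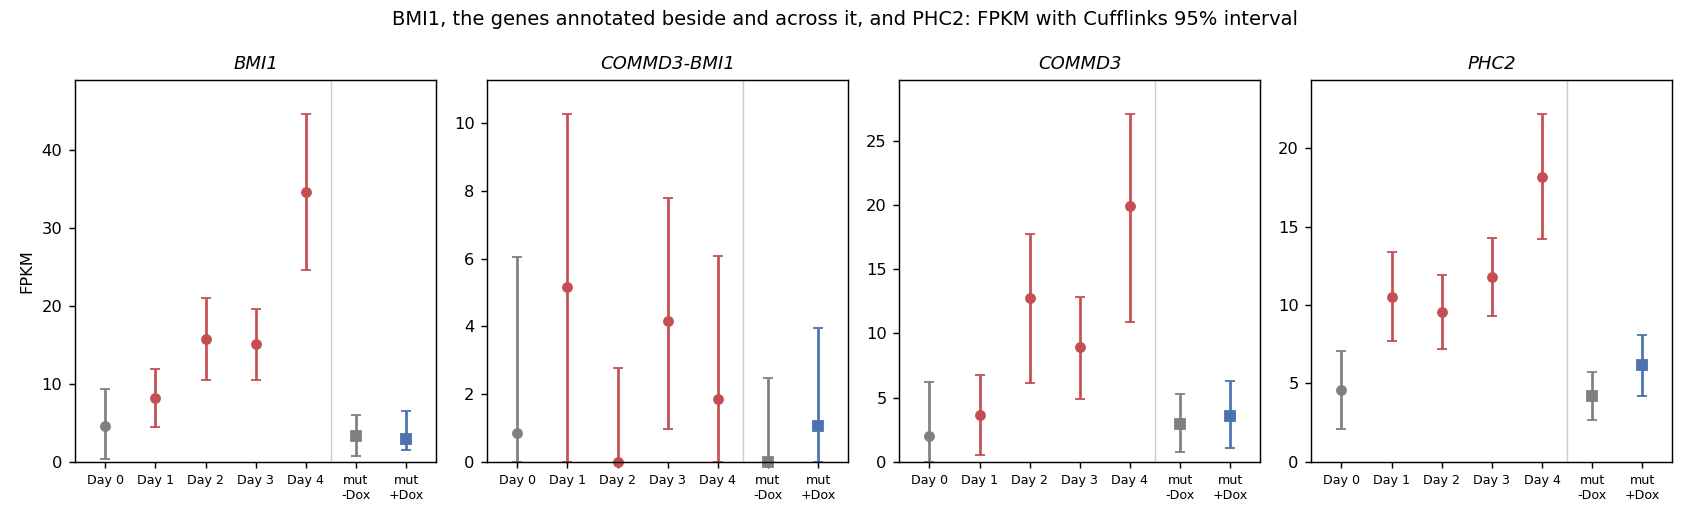
FPKM (y axis, linear, from 0) of BMI1, COMMD3-BMI1, COMMD3 and PHC2 in each library (x axis), with bars for the Cufflinks 95% interval and symbols as in the plot of the 9 subunits. BMI1, COMMD3 and PHC2 are at 34.6, 19.9 and 18.2 FPKM at Day 4, while COMMD3-BMI1 varies between 0.00373 and 5.17 FPKM in JMJD3c-hESCs with no order in time.

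Of 21 partners of variant PRC1, 2 were upregulated at Day 4 against Day 0 and none was downregulated, beside 5.87% and 7.56% of the rows above 4 FPKM, and the median log2 fold change was 0.0027. BCORL1, a paralog of the PCGF1 partner BCOR, was 0.929 FPKM at Day 0, between 4.21 and 6.02 FPKM on the 4 Dox days, and 0.853 and 1.43 FPKM in the mutant line. SCML2, a Polycomb protein with MBT repeats, was 4.50 FPKM at Day 0 and 11.7 FPKM at Day 4, but 6.56 FPKM in the untreated mutant line. With Dox in the mutant line, AUTS2, a partner of PCGF3 and PCGF5 complexes, was downregulated from 30.1 to 13.5 FPKM with intervals apart, and was 22.2 and 24.9 FPKM at Days 0 and 4.

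Among 12 genes of PRC2, the complex that writes H3K27me3, none was upregulated and 1 was downregulated at Day 4 against Day 0. It was EZH1, a methyltransferase subunit, at 4.58 and 2.23 FPKM with overlapping intervals. Among 12 genes that remove or read ubiquitin on H2A, 1 was upregulated, USP21, a deubiquitinase, at 6.20 and 13.2 FPKM with overlapping intervals. USP21 was 8.76 and 7.27 FPKM in the mutant line without and with Dox. Neither EZH1 nor USP21 was called at Day 4 against either mutant library. The same 5.87% and 7.56% of rows apply to the counts of upregulated and downregulated genes, and the list medians were 0.06 and 0.26. No gene of these 2 lists was called with Dox in the mutant line.

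The genes with the course most like that of each called member were found by the root mean square difference of log2(FPKM + 1), centred on each gene's mean over the 7 libraries, among 10877 rows above 4 FPKM in at least 1 library. For BMI1 they were LEFTY2 (difference 0.293), EMX1 (0.305) and DUSP4 (0.307). As these genes were picked for their likeness to BMI1, their higher values at Day 4 are a description. LEFTY2, a secreted NODAL antagonist, was 5.38 FPKM at Day 0 and 23.0 FPKM at Day 4, and 3.27 and 3.96 FPKM in the mutant line. EMX1, a homeobox gene, was listed at 0 at Day 0 and was 6.70 FPKM at Day 4, and DUSP4, a MAP kinase phosphatase, was 0.843 and 7.52 FPKM.

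The genes nearest to CBX7 included RIMS3 (difference 0.166) and GNAL (0.175). RIMS3, which encodes a presynaptic protein, was 10.2 FPKM at Day 0, 6.22, 3.97, 4.05 and 2.72 FPKM on Days 1 to 4, and 2.71 and 3.36 FPKM in the mutant line without and with Dox. GNAL, which encodes a G protein alpha subunit, was 12.0 FPKM at Day 0, 6.83, 4.67, 4.80 and 3.75 FPKM on Days 1 to 4, and 4.26 and 3.22 FPKM in the mutant line. Both were highest at Day 0. These genes were picked for their likeness to CBX7, so their course is a description.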

How the data were processed

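RNA-seq data of 7 samples were analysed, 1 library per condition. The authors prepared strand-marking libraries from polyadenylated RNA, sequenced single ends on a MiSeq, mapped the reads to hg19 with TopHat 2.0.13, and deposited FPKM values and interval bounds from Cufflinks 2.1.1; the labels also list CASAVA 1.4. The strand setting of the counting is not given in the sources used here. Rows were joined by identifier and position. Ratios, log2 fold changes with a pseudocount of 1, the overlap of intervals, shares and list medians were computed with Python 3.11.15, numpy 2.4.6 and pandas 2.3.3, and figures with matplotlib 3.10.9. No low values were removed. The named genes were the 9 members, the induced gene, 8 further PRC1 subunits, called genes of the other lists, and the genes nearest to each called member (3 each); some items chosen by this rule are not reported here; COMMD3, COMMD3-BMI1 and the promoters were added after their values were seen. The members and lists were chosen with earlier results of these data known. The deposited FPKM hold no counts, so depth was estimated from the steps of low values, and floors of 3 reads cover counting error only. Promoters came from RefSeq (GRCh38.p14) and were not converted to hg19. Gene overlaps and transcript lengths came from a GENCODE annotation lifted to hg19, which was not the one behind the FPKM. The calls were tested on simulated data with changes planted only in genes well above 4 FPKM, and with counting error only. That test does not cover genes near the cutoff or differences between cultures. The depth estimate was also tested on simulated data. Alternatives changed the cutoffs, the pseudocount, the scaling, the use of intervals, rows sharing a name, the treated day and the reference.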

Additional observations from a re-analysis of the deposited data

Results flagged for a closer look

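For 3 members, every Dox day of JMJD3c-hESCs lay on 1 side of Day 0 while Dox in the mutant line moved the gene the opposite way. The share of all rows that meet this rule was not computed, so nothing is read from the count. All Dox days were set against the same Day 0 library, in which RNF2 was at its lowest (23.6 FPKM) and RING1 at its highest (14.5 FPKM). The log2 fold changes at Day 4 against Day 0 and with Dox in the mutant line were 2.66 and −0.11 for BMI1, 0.54 and −0.18 for RNF2, and −0.18 and 0.20 for RING1. For BMI1 the second value turned to 0.23 when the overlapping COMMD3-BMI1 entry was added, so its opposite direction in the mutant line depends on how reads were divided. With 1 library per condition, the difference between the lines was not tested. For RNF2 and RING1, no Dox library passed the cutoffs in either line, and the intervals of Day 4 and Day 0 overlapped.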

How the results depend on the processing

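No paired analysis was possible because each condition had 1 library, and no library could be left out of a group for the same reason. At Day 4 against Day 0, the count of downregulated members went from 1 to 2 (CBX7 and CBX8) with an FPKM cutoff of 1 or none, and to 0 when intervals also had to be apart. The share of all rows was not computed for these changed rules, so nothing is read from the counts. With the untreated mutant line as the reference, 2 members were upregulated (RING1 and BMI1) and 0 downregulated, beside 7.05% and 3.9% of the rows above 4 FPKM. BMI1 was called under each of these settings, with log2 fold changes between 1.51 (Day 3 as the treated library) and 3.06, also when COMMD3-BMI1 was added to it, a setting chosen after seeing the data. That sum also passed the cutoffs at Day 1, and moved the log2 fold change with Dox in the mutant line from −0.11 to 0.23. The log2 fold change of CBX7 ranged from −2.26 to −0.16, of CBX2 from −0.53 to −0.07 and of RNF2 from 0.03 to 0.61, the value nearest 0 in each case being that against the untreated mutant line. With that reference, RING1 was at 1.13 in place of −0.18. Scaling by the median ratio or to the same sum changed no call of a member. The median of the members ranged from −0.14 (without BMI1, also chosen after seeing the data) to −0.03 at Day 4. With Dox in the mutant line, 0 members were called under every setting run, beside 1.25% and 1.53% of the rows above 4 FPKM under the main cutoffs. CBX8 and PCGF1 were under 4 FPKM in every library and could not be called with the main cutoffs. At Day 0, the shallowest library, PCGF1 stood on about 7.52 reads and CBX8 on about 49.4. These numbers rest on the depth estimate and on the longest transcript in an annotation other than the one behind the FPKM. The interval at Day 0 was 0.940 to 4.08 FPKM for PCGF1 and 0 to 8.94 FPKM for CBX8, so the read numbers do not rank their precision.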
